A study of Mus musculus with 6 samples.

Results

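The genes described here encode voltage-gated sodium channels (Scn), voltage-gated calcium channels (Cacn), the hyperpolarization-activated pacemaker channels (Hcn), the TRPC, TRPM and TRPV cation channels, and the fibroblast growth factor homologous factors Fgf11 to Fgf14, which bind sodium channels. The rule that picks them reads gene symbols and no values, although it was set with earlier results of these data known, and 68 of the 23537 gene symbols in the deposited table matched. RNA came from heart ventricles of male C57BL/6-FVB mice of 6 to 8 weeks, all of which carried 2 transgenes. One expresses the tetracycline transactivator from the αMHC promoter, and so in cardiomyocytes, and the other places HIF-PPN, a HIF1α made stable in normal oxygen by 3 amino acid substitutions, under the control of that transactivator. In the HIF-PPN group (n = 3 mice), doxycycline had been withdrawn for 3 days to switch the transgene on. In the control group (n = 3 mice), doxycycline was kept in the drinking water to suppress the transgene. Expression of HIF-PPN and withdrawal of doxycycline therefore cannot be told apart.

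The deposited gene values are FPKM, fragments counted on a gene scaled to its exon length and to the number of mapped fragments, with 1 value for each group into which the 3 mice were merged. No value per mouse, read count or error was analysed here, so every difference below is a description of 2 group values with no replicate check and no p-value. Genes that reached 1 FPKM in either group were taken as expressed, and differences are stated as log2 fold changes, HIF-PPN over control. The Hif1a row was at 25.9 FPKM in HIF-PPN hearts and 35.3 FPKM in control hearts (log2 fold change −0.45). It cannot check the labels, because whether fragments of the transgene map to it is not known. A low or 0 value does not show that a gene is silent in this table, for Gapdh, a glycolytic gene that every cell uses, was listed at 0.488 FPKM in HIF-PPN hearts and 0.481 FPKM in control hearts, and 13 genes at 10 FPKM or more in 1 group were listed at 0 in the other. Over the 12092 expressed genes with a value above 0 in both groups the median log2 fold change was 0.012. All 12 cardiomyocyte markers were expressed, with the ventricular myosin light chain gene Myl2 at 12096 FPKM in HIF-PPN hearts and 12804 FPKM in control hearts, and 11 of the 12 were lower in HIF-PPN hearts (median log2 fold change −0.12). All 10 markers of atrial cardiomyocytes were expressed too, with a summed level of 1986 FPKM in HIF-PPN hearts and 2724 FPKM in control hearts. Nppa weighed most in these sums, at 875 FPKM in HIF-PPN hearts and 1235 FPKM in control hearts. The markers did not all share its direction, for 8 were lower and 2 were higher, Bmp10 (log2 fold change 0.12) and Nr2f2 (0.16). In whole tissue, fewer cells of a type and less RNA per cell cannot be told apart.

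These channels carry the inward currents of the heartbeat. Sodium channels open first and drive the fast upstroke of the cardiomyocyte action potential, L-type calcium channels then admit the calcium that triggers release from the sarcoplasmic reticulum, and HCN channels carry the inward current by which pacemaker cells depolarize between beats. Each sodium and calcium channel has 1 large pore-forming subunit and smaller auxiliary subunits that set its gating and its amount at the membrane, whereas TRP channels admit sodium and calcium in response to receptors, stretch, temperature or ions within the cell.

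Of the 68 genes, 29 were expressed, and only a few of these stood 2-fold or more apart between the groups. At least 2-fold lower in HIF-PPN hearts were 4 of 29, or 13.8%, among them the pacemaker channel gene Hcn4, the calcium channel gamma subunit gene Cacng6 and the sodium channel partner gene Fgf12, where 1.08% of all expressed genes were at least 2-fold lower. The calcium channel beta subunit gene Cacnb1 alone was at least 2-fold higher, 1 of 29 or 3.45%, where 2.11% of all expressed genes were. Counting differences of any size, 20 of the 29 were lower (69%, where 47.9% of expressed genes were) and a median log2 fold change of −0.19. Among the 28 genes with 1 FPKM or more in both groups, 3 were at least 2-fold lower, 1 was at least 2-fold higher and the median was −0.16. Of all 11587 genes at that level in both groups, 69 were at least 2-fold lower and 117 at least 2-fold higher, with a median of 0.010. The most abundant genes lay closer together, since none of the 11 genes that reached 10 FPKM in either group differed 2-fold. Differences of that size were rare at this level. Of all 6137 such genes with a value above 0 in both groups, 25 were at least 2-fold lower and 48 at least 2-fold higher.

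**Figure D1:**
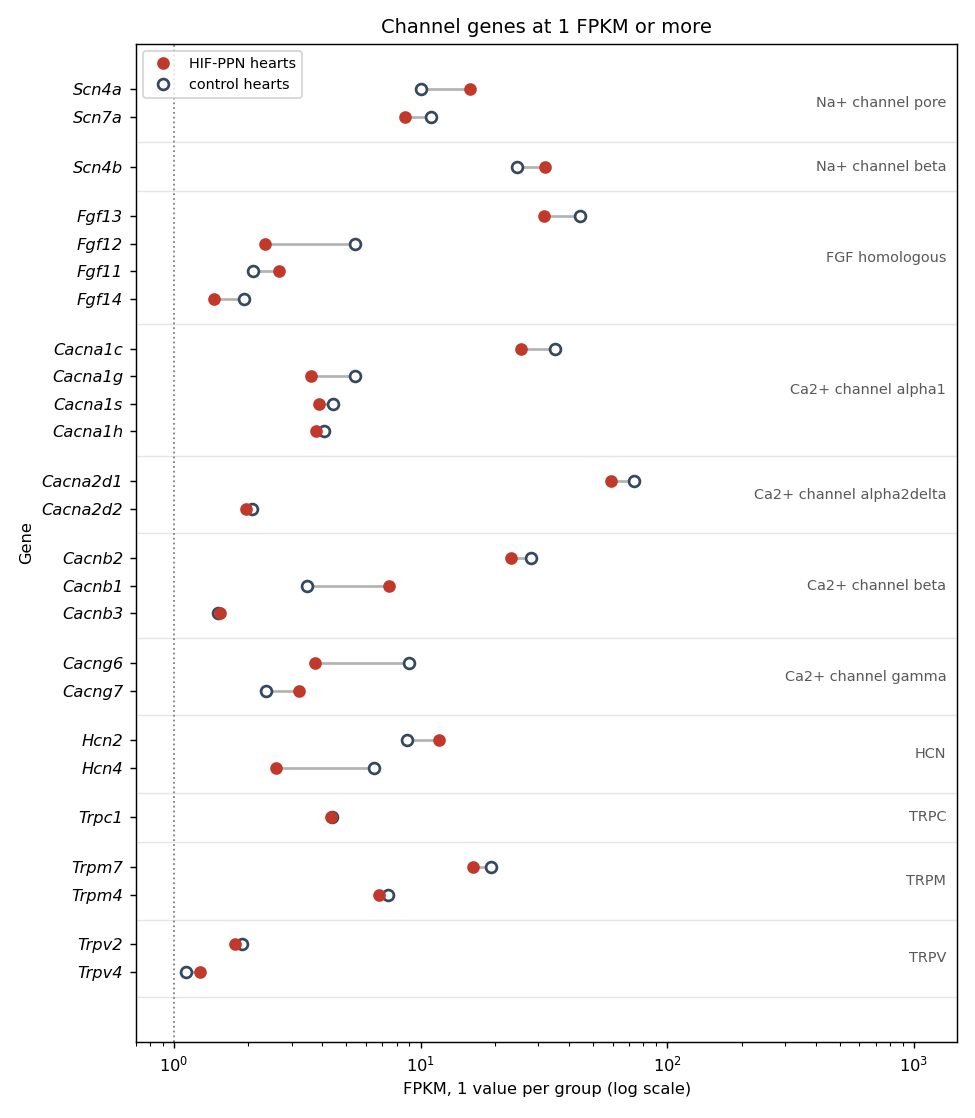
FPKM of 25 expressed channel genes, grouped by family, on a logarithmic axis, with filled circles for HIF-PPN hearts, open circles for control hearts and a dotted line at 1 FPKM. Each circle is the 1 value of its group, into which 3 mice were merged, and among the wide gaps is that of Hcn4, at 2.59 FPKM in HIF-PPN hearts and 6.49 FPKM in control hearts.

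The promoters of Hcn4, Cacng6, Fgf12 and Cacnb1 are shown with that of Trpm7. Among the 35 promoters of expressed members it held the most matches to the HIF1 core motif in a single promoter. The sequences are those of RefSeq on GRCm38.p6, 300 bases around a transcription start. At least 1 such sequence was available for 54 of the 68 genes and for 22 of the 29 expressed genes. The motif was searched as ACGTG or GCGTG on both strands, and capitals mark each match. Where CACGTG stands, ACGTG matches once on each strand and the matches overlap. For Fgf12 and Cacnb1, which have several starts, the start furthest upstream is shown.
Hcn4 promoter, chr9:58822699-58822998, plus strand: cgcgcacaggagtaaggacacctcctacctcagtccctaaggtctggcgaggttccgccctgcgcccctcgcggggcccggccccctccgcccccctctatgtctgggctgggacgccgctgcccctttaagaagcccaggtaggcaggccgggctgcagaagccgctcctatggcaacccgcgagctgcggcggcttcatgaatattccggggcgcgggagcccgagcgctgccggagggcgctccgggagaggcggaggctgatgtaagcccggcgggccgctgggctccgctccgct
Cacng6 promoter, chr7:3424412-3424711, plus strand: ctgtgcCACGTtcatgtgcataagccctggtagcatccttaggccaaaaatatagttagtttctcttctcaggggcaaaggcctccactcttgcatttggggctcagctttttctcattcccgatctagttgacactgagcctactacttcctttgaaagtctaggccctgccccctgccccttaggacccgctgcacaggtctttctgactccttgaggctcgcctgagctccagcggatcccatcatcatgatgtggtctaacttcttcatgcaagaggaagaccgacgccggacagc
Fgf12 promoter, chr16:28753194-28753493, minus strand: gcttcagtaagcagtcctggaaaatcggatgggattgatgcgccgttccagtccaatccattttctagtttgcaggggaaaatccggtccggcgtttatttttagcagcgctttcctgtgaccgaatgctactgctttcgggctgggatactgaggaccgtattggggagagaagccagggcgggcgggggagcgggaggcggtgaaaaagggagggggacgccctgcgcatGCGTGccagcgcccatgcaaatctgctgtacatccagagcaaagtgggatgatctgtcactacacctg
Cacnb1 promoter, chr11:98022578-98022877, minus strand: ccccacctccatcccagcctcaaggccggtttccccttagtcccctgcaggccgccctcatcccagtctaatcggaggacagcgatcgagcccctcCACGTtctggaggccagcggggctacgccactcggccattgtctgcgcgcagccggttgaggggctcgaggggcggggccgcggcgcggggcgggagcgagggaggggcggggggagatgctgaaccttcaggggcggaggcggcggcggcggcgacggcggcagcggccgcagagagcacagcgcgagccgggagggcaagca
Trpm7 promoter, chr2:126876212-126876511, minus strand: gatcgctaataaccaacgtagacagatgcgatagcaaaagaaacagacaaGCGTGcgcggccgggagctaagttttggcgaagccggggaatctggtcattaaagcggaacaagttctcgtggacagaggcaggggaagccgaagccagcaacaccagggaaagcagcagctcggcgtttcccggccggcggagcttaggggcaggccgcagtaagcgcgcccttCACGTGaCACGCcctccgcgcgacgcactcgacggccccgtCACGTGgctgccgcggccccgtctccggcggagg
The Hcn4 promoter held no match. That of Cacng6 held 1 ACGTG match on the opposite strand, that of Cacnb1 likewise held 1, and that of Fgf12 held 1 GCGTG match on the strand of the gene. Of the promoters not shown, those of Fgf12 held 2, 2 and 1 GCGTG matches, and that of Cacnb1 held none. Trpm7 held 6 matches, 4 of them in 2 CACGTG palindromes, and its level differed little between the groups (log2 fold change −0.25). Matches are common in windows of this length. They occurred in 48.6% of the 35 promoters of expressed members, in 49.3% of the 75 promoters of all members and in 43.8% of the 32851 promoters in the table. These letters do not show whether HIF1 binds there.

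The pacemaker channel genes Hcn4 and Hcn2 lay on opposite sides. Hcn4, the principal channel of the sinoatrial node, lies on chromosome 9 of mm10 from 58823512 to 58860955 and was at 2.59 FPKM in HIF-PPN hearts, against 6.49 FPKM in control hearts (log2 fold change −1.33). Hcn2, the main HCN gene of ventricular muscle, was at 11.9 FPKM in HIF-PPN hearts and 8.80 FPKM in control hearts (0.43). Its row covers a region of 672 kb that holds 44 other coding genes, whereas the RefSeq gene is 19.5 kb long, and whether reads of those genes entered its value was not tested. Hcn3 was under 0.1 FPKM in both groups. The ratio of Hcn2 to Hcn4 was 4.59 in HIF-PPN hearts and 1.36 in control hearts, while Hcn2 was the higher of the pair in both.

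Large differences are more frequent among weakly expressed genes, so each of these values was set beside genes of similar level. Among the 4204 expressed genes whose mean level lay within 2-fold of that of Hcn4, 0.928% were 2-fold or more lower in HIF-PPN hearts. This share was 1.17% of 3941 genes for Fgf12 and 0.614% of 4721 genes for Cacng6. Cacnb1 lay on the other side, with 1.28% of 4468 genes of similar level 2-fold or more higher.

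Genes that mark the cells in which Hcn4 is abundant were also examined. Of 10 markers of sinoatrial node and Purkinje cells, 6 were expressed and 5 of these were lower in HIF-PPN hearts, with a summed level of 25.0 FPKM in HIF-PPN hearts and 36.6 FPKM in control hearts. The lower markers included Kcne1, a potassium channel subunit gene, and Gja5, which encodes connexin 40 of the conduction system. Kcne1 was at 0.590 FPKM in HIF-PPN hearts and 4.74 FPKM in control hearts (log2 fold change −3.01), and reached the filter in control hearts alone. Gja5 was at 4.71 and 10.7 FPKM in the same order (−1.19). Most of the gap between the sums came from Kcne1 and Gja5. The other lower markers differed less, namely Irx3 (−0.22), Tbx18 (−0.11) and Tbx3. Cntn2 was higher, at 1.94 FPKM in HIF-PPN hearts and 1.60 FPKM in control hearts (0.28). The defining transcription factor genes of the node were low or level. Isl1 was at 0.0278 FPKM in HIF-PPN hearts and 0.0236 FPKM in control hearts, Shox2 was at 0.458 and 0.125 FPKM, and Tbx3 was at 4.005 and 4.010 FPKM in that order (log2 fold change −0.0018). Over a list of transcription factors of the conduction system, which shares Irx3, Isl1, Shox2, Tbx3 and Tbx18 with those markers, 7 of 8 expressed genes were lower and none differed 2-fold. The lowest log2 fold changes were those of Hopx (−0.77) and Etv1 (−0.64). Among the atrial markers, 8 of 10 were lower, 2 of them at least 2-fold, the kinase genes Sbk2 (−1.01) and Sbk3 (−1.07). What part these cells have in the value of Hcn4 was not tested.

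Of the sodium channel pore genes, Scn4a, the sodium channel of skeletal muscle, was at 15.8 FPKM in HIF-PPN hearts and 10.1 FPKM in control hearts (log2 fold change 0.65), and 4.45% of expressed genes had a higher log2 fold change than this. Scn7a, an atypical member that senses sodium rather than voltage, was at 8.68 FPKM in HIF-PPN hearts and 11.0 FPKM in control hearts (−0.34). Scn4a thus stood above Scn7a in HIF-PPN hearts and slightly below it in control hearts, and neither differed 2-fold between the groups.

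The neuronal sodium channels had low values. Leaving Scn4a aside, the 5 genes of the tetrodotoxin-sensitive class (Scn1a, Scn2a1, Scn3a, Scn8a and Scn9a) summed to 0.438 FPKM in HIF-PPN hearts and 0.688 FPKM in control hearts. Scn10a, a channel of sensory neurons, was at 0.595 FPKM in HIF-PPN hearts and 0.814 FPKM in control hearts (log2 fold change −0.45). Scn11a, which neighbours it on chromosome 9 at a distance of 34.7 kb, was under 0.1 FPKM in both. Neither reached the filter.

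The auxiliary beta subunits span the membrane once, slow or speed the gating of the pore and act in cell adhesion. Scn4b was at 32.1 FPKM in HIF-PPN hearts and 24.6 FPKM in control hearts (log2 fold change 0.38), and so was higher by less than 2-fold. Scn2b and Scn3b stayed under 1 FPKM. Scn2b was at 0.181 FPKM in HIF-PPN hearts and 0.259 FPKM in control hearts, and its row covers 56.4 kb with 1 other coding gene in the region, whereas the RefSeq gene is 12.2 kb long.

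The fibroblast growth factor homologous factors are not secreted. They remain in the cell and bind the tail of the sodium channel, where they shift its inactivation. Fgf12 lies on chromosome 16 from 28158584 to 28753243 and was at 2.34 FPKM in HIF-PPN hearts, against 5.41 FPKM in control hearts (log2 fold change −1.21). Fgf13, by far the most abundant of the 4, was at 31.7 FPKM in HIF-PPN hearts and 44.2 FPKM in control hearts (−0.48). Fgf14 was at 1.46 FPKM in HIF-PPN hearts and 1.93 FPKM in control hearts (−0.40), and the RefSeq gene overlaps the coding gene Itgbl1 by 4425 bp. Fgf11 was the exception, at 2.65 FPKM in HIF-PPN hearts and 2.1 FPKM in control hearts (0.34). The order of levels was Fgf13, Fgf11, Fgf12, Fgf14 in HIF-PPN hearts and Fgf13, Fgf12, Fgf11, Fgf14 in control hearts, and no error can be put on the difference between neighbours. Among 12 other partners of the sodium channel, 6 were lower and 6 higher. Gja1, which encodes connexin 43 of the intercalated disc, was the only one 2-fold apart (143 FPKM in HIF-PPN hearts and 358 FPKM in control hearts, −1.32).

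**Figure D2:**
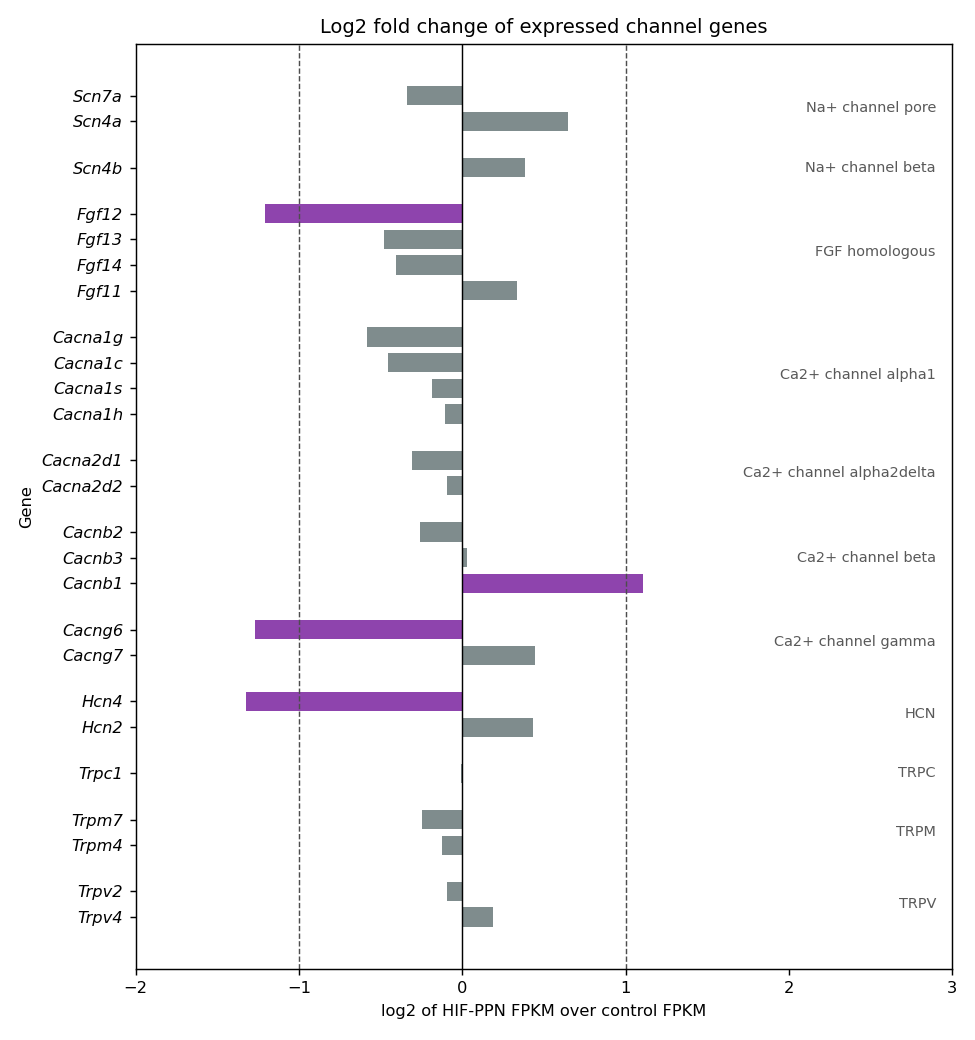
Log2 of the HIF-PPN FPKM over the control FPKM for 25 expressed channel genes, with dashed lines at 2-fold in either direction and purple bars for genes past them. Bars to the left of 0 are lower in HIF-PPN hearts, as 17 of the 25 genes plotted were, and the bars past 2-fold are those of Fgf12, Cacng6 and Hcn4 on the left and Cacnb1 on the right.

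All 4 expressed pore-forming genes of calcium channels were lower in HIF-PPN hearts, each by less than 2-fold, where 47.9% of all expressed genes were lower. Cacna1c, the L-type channel that couples excitation to contraction in the heart, was at 25.5 FPKM in HIF-PPN hearts, against 35.0 FPKM in control hearts (log2 fold change −0.46). Cacna1g, a T-type channel that opens at low voltage and takes part in pacemaking, was at 3.60 FPKM in HIF-PPN hearts and 5.40 FPKM in control hearts (−0.58). The other T-type gene, Cacna1h, was at 3.77 FPKM in HIF-PPN hearts and 4.05 FPKM in control hearts (−0.10), so the T-type genes stood at a ratio of Cacna1g to Cacna1h of 0.955 in HIF-PPN hearts and 1.33 in control hearts. Cacna1s, the voltage sensor of skeletal muscle, was at 3.88 FPKM in HIF-PPN hearts and 4.42 FPKM in control hearts (−0.19). By class, L-type genes summed to 29.9 FPKM in HIF-PPN hearts and 40.1 FPKM in control hearts (log2 ratio −0.42), and T-type genes to 7.40 and 9.47 FPKM in that order (−0.36). The makeup of the family hardly differed, with L-type genes at 78.8% of the total in HIF-PPN hearts and 80.0% in control hearts. Cacna1d, the L-type gene of the sinoatrial node, did not reach the filter (0.537 FPKM in HIF-PPN hearts and 0.691 FPKM in control hearts). The P/Q-, N- and R-type genes of neurons (Cacna1a, Cacna1b and Cacna1e) summed to 0.668 FPKM in HIF-PPN hearts and 0.573 FPKM in control hearts. Of the expressed genes, Cacna1c overlaps the coding gene Dcp1b by 22132 bp, and Dcp1b was level (log2 fold change 0.025).

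The auxiliary subunits of the L-type channel differed in direction. Cacna2d1, which encodes the extracellular α2δ subunit that raises the number of channels at the surface, was the most abundant of all the genes described here, at 59.3 FPKM in HIF-PPN hearts and 73.3 FPKM in control hearts (log2 fold change −0.31). Cacna2d2 was at 1.95 FPKM in HIF-PPN hearts and 2.08 FPKM in control hearts (−0.091), and Cacna2d3 and Cacna2d4 stayed under 1 FPKM. Cacnb2, the main cytoplasmic beta subunit of the heart, was at 23.3 FPKM in HIF-PPN hearts and 27.9 FPKM in control hearts (−0.26). It therefore stood close to the level of its pore, with a ratio of Cacna1c to Cacnb2 of 1.09 in HIF-PPN hearts and 1.26 in control hearts. Cacnb1, the beta subunit of skeletal muscle, lies on chromosome 11 from 98001508 to 98022627 and was at 7.42 FPKM in HIF-PPN hearts, against 3.45 FPKM in control hearts (1.10). Cacnb3 was level, at 1.54 FPKM in HIF-PPN hearts and 1.51 FPKM in control hearts (0.026), and Cacnb4 stayed under 1 FPKM. With Cacnb2 lower and Cacnb1 higher, the summed level of the beta subunits was 32.8 FPKM in HIF-PPN hearts and 33.5 FPKM in control hearts (log2 ratio −0.030). Cacnb1 made up 22.6% of that sum in HIF-PPN hearts and 10.3% in control hearts. The RefSeq gene of Cacnb1 overlaps that of the ribosomal protein gene Rpl19 by 1032 bp, and Rpl19 was at 8.58 FPKM in HIF-PPN hearts and 8.32 FPKM in control hearts (0.045).

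Of the gamma subunits, Cacng6 and Cacng7 were expressed, and they lay on opposite sides. Cacng6, a gamma subunit of striated muscle, lies on chromosome 7 from 3424662 to 3434940 and was at 3.73 FPKM in HIF-PPN hearts, against 8.98 FPKM in control hearts (log2 fold change −1.27). Cacng7, whose product binds glutamate receptors in neurons, was at 3.22 FPKM in HIF-PPN hearts and 2.37 FPKM in control hearts (0.44). These genes are near neighbours, with 57.7 kb between their rows, and Cacng8, which lies between them, was listed at 0 in both groups. The ratio of Cacng6 to Cacng7 was 1.16 in HIF-PPN hearts and 3.79 in control hearts. The summed gamma level, 7.20 FPKM in HIF-PPN hearts and 11.5 FPKM in control hearts, had the lowest log2 ratio of the 11 families (−0.67). Cacng1, the gamma subunit of the skeletal muscle channel, was at 0.171 FPKM in HIF-PPN hearts and 0.0616 FPKM in control hearts, too low to be counted.

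**Figure D3:**
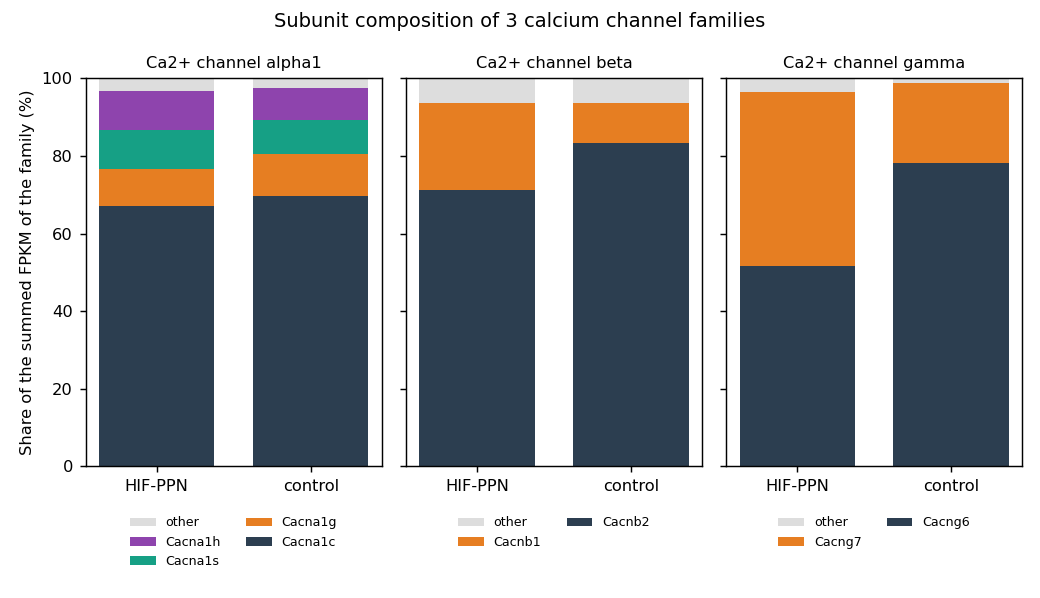
Share of the summed FPKM of a calcium channel family held by each gene, in percent, for 3 families, with HIF-PPN hearts as the left bar and control hearts as the right bar of each pair. Genes under 5% in both groups are summed as other, and Cacng6 holds 51.7% of the gamma total in HIF-PPN hearts and 78.1% in control hearts.

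Scn4a, Cacnb1, Cacna1s and Cacng1 are known from skeletal muscle, and markers of that tissue were therefore read beside them. Of 14 skeletal muscle markers, 5 were expressed, and 4 of these lay 2-fold or more above control hearts in HIF-PPN hearts. They were the actin gene Acta1 (579 FPKM in HIF-PPN hearts and 177 FPKM in control hearts, log2 fold change 1.71), the calcium-binding protein gene Casq1 (2.12), the myosin binding protein gene Mybpc2 (2.08) and the Z-disc gene Myot (1.17). The fifth, the troponin gene Tnni2, was lower (0.461 FPKM in HIF-PPN hearts and 3.06 FPKM in control hearts, −2.73), and reached the filter in control hearts alone. The summed level of these markers was 686 FPKM in HIF-PPN hearts and 214 FPKM in control hearts, most of it from Acta1, which heart muscle also expresses. Of the fast myosin genes that define skeletal fibres, Myh4 was listed at 0 in both groups and Myh1 and Myh2 were under 0.02 FPKM. Ryr1, the calcium release channel of skeletal muscle, was at 0.281 FPKM in HIF-PPN hearts and 0.0139 FPKM in control hearts. The other markers under the filter with a ratio lay on both sides. Actn3 (log2 fold change 0.76), Mybpc1 (2.68) and Tnnt3 (2.26) were higher, and Tnnc2 (−0.053), Mylpf (−0.44) and Myh2 (−1.36) were lower. Cacna1s did not share the direction of Scn4a and Cacnb1.

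Of 16 partners of the calcium channel, 12 were expressed, 7 of them lower and 5 higher (median log2 fold change −0.14), and none differed 2-fold. Rrad, which encodes a small GTPase that restrains the L-type channel, had the lowest fold change, at 110 FPKM in HIF-PPN hearts and 168 FPKM in control hearts (−0.61). Jph2, which encodes the junctophilin that holds the channel beside the sarcoplasmic reticulum, was at 118 and 153 FPKM in that order (−0.38). Among components of store-operated calcium entry, 3 of 4 expressed genes were higher (median log2 fold change 0.086). Orai1, the pore, was furthest apart (11.8 FPKM in HIF-PPN hearts and 8.54 FPKM in control hearts, 0.47).

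Of the 20 TRP channel genes, 6 were expressed, 5 of these were lower, Trpc1 only slightly so, and none differed 2-fold. Of all expressed genes, 47.9% were lower by any amount, 1.08% were at least 2-fold lower and 2.11% at least 2-fold higher. Trpm7, which joins a magnesium-permeable channel to a kinase, was the most abundant at 16.3 FPKM in HIF-PPN hearts and 19.4 FPKM in control hearts (log2 fold change −0.25). Trpm4, a channel that calcium opens but that passes sodium and potassium, was at 6.78 FPKM in HIF-PPN hearts and 7.40 FPKM in control hearts (−0.13). Trpc1, whose product joins other TRPC subunits, was level at 4.33 FPKM in HIF-PPN hearts and 4.36 FPKM in control hearts (−0.010). Of the TRPV genes, Trpv2 was at 1.76 FPKM in HIF-PPN hearts and 1.88 FPKM in control hearts (−0.094). Trpv4, which responds to swelling and warmth, was at 1.28 FPKM in HIF-PPN hearts and 1.12 FPKM in control hearts (0.19), the lowest mean of any of the 28 channel genes at 1 FPKM in both groups. Of 7 other genes of the TRP superfamily 3 were expressed, with log2 fold changes of 0.17 for Mcoln1, 0.019 for Pkd2 and −0.71 for Pkd2l2.

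**Figure D4:**
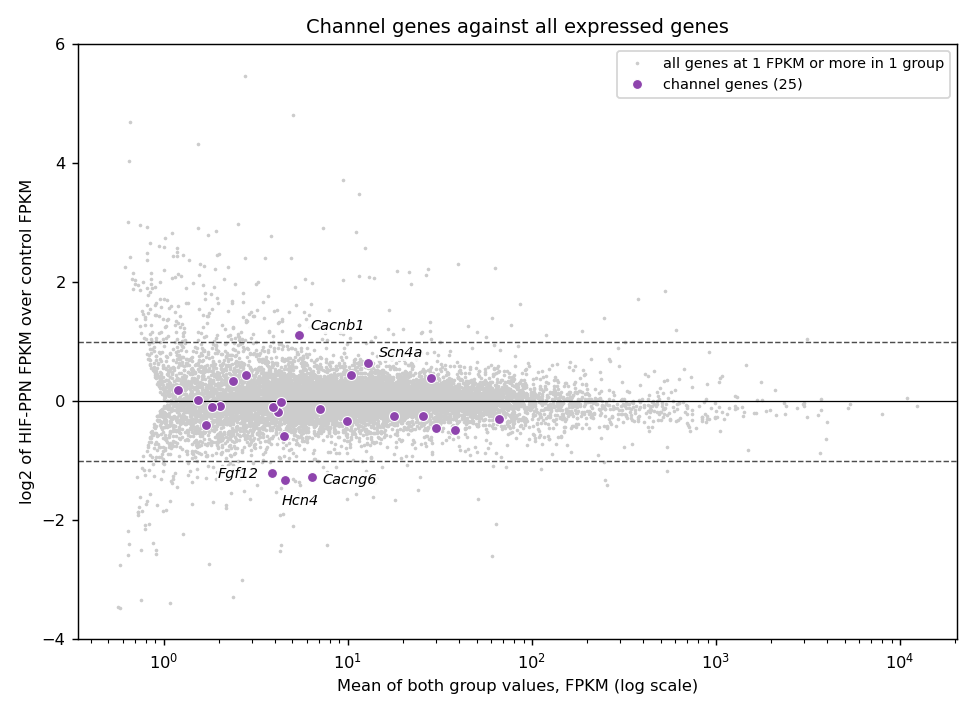
Log2 of the HIF-PPN FPKM over the control FPKM against the mean of both values (log axis) for expressed genes in grey and 25 expressed channel genes in purple, with dashed lines at 2-fold. The scatter of all genes widens towards low levels, and Hcn4, Fgf12 and Cacng6 lie below the lower dashed line at a few FPKM (log2 fold change of Hcn4 −1.33).

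The remaining 39 genes stayed under 1 FPKM in both groups, and their values carry little weight singly. Of these, 7 were listed at 0 in both groups (Cacna1f, Cacng2, Cacng8, Scn1a, Trpc5, Trpm5 and Trpv5) and 8 at 0 in 1 group. Of those 8, 6 had a value in HIF-PPN hearts alone (Cacna1b, Cacng4, Scn9a, Trpc7, Trpm8 and Trpv6), and Cacng3 and Cacng5 had one in control hearts alone, none above 0.1 FPKM. The other 24 divided into 13 higher and 11 lower. The highest of them was Trpm3, at 0.845 FPKM in HIF-PPN hearts and 0.890 FPKM in control hearts, just under the filter, as Trpv4 was just over it. Markers of neurons and chromaffin cells, in which many of these channels are abundant, lay on both sides, for of 5 expressed the catecholamine enzyme genes Dbh (log2 fold change −1.81) and Ddc (−1.22) were at least 2-fold lower and Tubb3 (1.26) and Uchl1 (1.28) at least 2-fold higher.

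Markers of the other cell types of the heart differed less, except for those of adipocytes. Of 9 adipocyte markers, 8 were expressed and all 8 were higher in HIF-PPN hearts, 7 of them 2-fold or more, among them the adipokine gene Adipoq (8.24 FPKM in HIF-PPN hearts and 1.55 FPKM in control hearts) and the brown fat gene Ucp1 (12.9 and 1.72 FPKM in that order). Their summed level was 1316 FPKM in HIF-PPN hearts and 933 FPKM in control hearts, most of it from Fabp4, which capillary endothelium also expresses. No marker of the other 5 types differed 2-fold. Of 8 endothelial markers 6 were lower (median log2 fold change −0.060), of 10 smooth muscle and pericyte markers 5 were lower and 5 higher (−0.0033), and of 8 fibroblast markers 4 were lower and 4 higher (−0.099). All 7 macrophage markers were lower (−0.35), as were 3 of 4 expressed Schwann cell markers (−0.34). What part a difference in cell makeup has in the values of the channel genes was not tested.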

How the data were processed

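Total RNA from the ventricles of 6 mice was enriched for poly A RNA and sequenced in paired ends. After trimming, the authors aligned reads with TopHat, which runs Bowtie, and obtained gene levels from Cufflinks and Cuffdiff on mm10, following an initial run on an older NCBI build. The deposited FPKM values hold 1 value per group. The deposited table also has a column of the authors' own log2 fold changes, which was not used. All 68 rows overlap the gene of that name in RefSeq GRCm38.p6 (67 by symbol and Scn2a1 through a synonym), and positions are 1-based mm10 coordinates. Depth per sample is unknown, strand use is not given in the sources used here, and FPKM values of genes that overlap may share reads.

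Of 23792 gene rows, 160 symbols are repeated, and the row with the highest mean was kept. No member is repeated. Log2 ratios were computed with no pseudocount. Genes at 0 in either group got no ratio. Every member that reached 1 FPKM in either group is named with both values, except some that are not reported here but are in the counts, and other genes come from 18 lists of partners and markers, named where 2-fold apart or where they define a list. Tbx3, Tbx18, Irx3, Cntn2, Isl1, Shox2, Hopx, Etv1, Rrad, Jph2, Orai1, Ryr1, Mcoln1, Pkd2 and Pkd2l2 were named after their values were seen. So were Nppa, Bmp10, Nr2f2, Actn3, Mybpc1, Tnnt3, Tnnc2 and Mylpf. The members and lists were chosen with earlier results of these data known. The counting was tested on simulated data. Calculations used python 3.11.15, numpy 2.4.6 and pandas 2.3.3, and plots matplotlib 3.10.9. The alternatives were other filters, pseudocounts, fold thresholds, centring and summing of repeated symbols.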

Additional observations from a re-analysis of the deposited data

How the results depend on the processing

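The count of genes at least 2-fold lower was 4 and became 1 at a 3-fold threshold, and under the other alternatives it lay between 3 and 6. The count at least 2-fold higher was 1, and it was 7 with no filter beyond a value above 0 in both groups, 2 at a 1.5-fold threshold, 0 at a 3-fold threshold and 0 with a pseudocount of 1 FPKM. With that pseudocount Cacnb1 was at 0.92 and Fgf12 at −0.94, both within 2-fold. The count lower by any amount was 20 of 29, against 12 of 17 at 5 FPKM and 31 of 53 with no filter. Shares over all genes were taken at the main filter and at 1 FPKM in both groups alone. Under the other alternatives the member counts therefore have no such share beside them, and show only how the counts move with the setting. The median log2 fold change lay between −0.31 and −0.094 and stayed below 0 in each alternative. None of the 29 expressed genes changed sign under either pseudocount, centring or summing of repeated symbols. Chosen after seeing the data, counting the shared row of Trpc2 gave 4 lower and 1 higher, and leaving out Hcn2 gave the same counts. The shares of Cacna1c and Cacnb2 in their families hardly differed when genes under the filter were left out. No paired analysis was possible because the values of the 3 mice of each group were already merged. For the same reason no replicate could be left out, and depth sets an unknown limit on values near the filter.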

Other observations

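Trpc2 has no row of its own. A row shared with Xndc1 and Xntrpc was at 3.77 FPKM in HIF-PPN hearts and 4.17 FPKM in control hearts (log2 fold change −0.14), and it was not counted as a member. Of 9 partners of HCN channels and cyclic nucleotide-gated channels 2 were expressed, 1 lower and 1 higher, and of 11 other channels that pass sodium or calcium 4 were expressed, 2 lower and 2 higher. Cnga3, a cyclic nucleotide-gated channel gene, was at 2.07 FPKM in HIF-PPN hearts and 1.35 FPKM in control hearts (0.61), and the lysosomal channel gene Tpcn1 was at 16.9 and 14.5 FPKM in that order (0.22). Both were chosen after their values were seen.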
